A study of Mus musculus with 29 samples.

Results

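The MHC class I antigen presentation genes were 10 genes chosen by name: the heavy chains H2-K1 and H2-D1, the light chain B2m, the transport and loading genes Tap1, Tap2 and Tapbp, the immunoproteasome subunits Psmb8, Psmb9 and Psmb10, and the regulator Nlrc5. All 10 were found by symbol among the 56953 features of the gene count table. They were described in 29 libraries of cultured stromal vascular fraction, abbreviated SVF, which holds the cells of digested fat other than adipocytes. The cells came from inguinal (iWAT, subcutaneous) or perigonadal (pgWAT, visceral) white adipose tissue of adult male or female C57BL6/J mice, and all cultures were kept in PM1 medium with 1 nM basic FGF for 4 days. Per the labels, iWAT gave 10 male and 9 female libraries, and pgWAT gave 4 male and 6 female libraries. The group sizes that the study states for these cultures differ from those of the labels, which were used throughout. No culture without basic FGF and no interferon-treated culture was among them. The cells were neither sorted nor cloned, and which mice or experiments each well came from was not given in the labels.

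Class I molecules display short peptides from inside the cell on its surface, where CD8 T cells and natural killer cells read them. A heavy chain pairs with beta-2 microglobulin, the product of B2m. The peptides are cut by the proteasome, in which Psmb8, Psmb9 and Psmb10 replace the catalytic subunits Psmb5, Psmb6 and Psmb7 to form the immunoproteasome. Tap1 and Tap2 form the pump that moves peptides into the endoplasmic reticulum, and tapasin, the product of Tapbp, holds the empty heavy chain at that pump. Nlrc5 is a transactivator of class I promoters, and interferons raise the whole set in most cell types, fibroblasts included.

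Total counts were between 315316 and 1102234 per library. Levels are given as CPM, the usual count scaled to a common library total, here after TMM scaling, at which 3 counts correspond to between 2.58 and 9.76 CPM in a single library. In pgWAT the transcripts of the X-inactivation gene Xist and of 4 Y-linked genes put the sex label in doubt in 5 of the 10 libraries, while all 19 iWAT libraries matched their label. The transcripts were those of the other sex in pgWAT male 2 and 4 and pgWAT female 2 and 3, and pgWAT female 1 held both kinds. Groups were kept as labelled. Replicate numbers follow the order of deposition and pair nothing, and the wells are described in the study as technical replicates of few experiments, so every p-value below measures the spread between wells.

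The promoters of the members that differed between depots are shown first, since these genes are known to be controlled through short shared elements. RefSeq sequences on GRCm38.p6 were at hand for 8 of the 10 members, namely H2-K1, H2-D1, B2m, Tap1, Tapbp, Psmb8, Psmb9 and Psmb10. The 250 bases before each start were searched on both strands for 5 motifs: GAAANNGAA (core of the interferon-stimulated response element), TTCNNNGAA (gamma-activated site), GGGNNTTCC (kappaB-like), TGACGC (X2-box-like) and CCAAT (Y box). The first 2 motifs overlap in their letters, since both can contain a GAA. Each sequence is written 5′ to 3′ on the strand of its gene, ending 1 base before the start, with the matched letters in capitals.
H2-K1 (chr17:34000348-34000597, minus strand): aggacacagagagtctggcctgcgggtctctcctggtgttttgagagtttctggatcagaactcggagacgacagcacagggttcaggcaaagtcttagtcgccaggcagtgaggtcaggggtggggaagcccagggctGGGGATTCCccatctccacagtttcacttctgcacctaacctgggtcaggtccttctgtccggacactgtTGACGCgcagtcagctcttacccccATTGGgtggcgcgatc
H2-D1 (chr17:35262844-35263093, plus strand): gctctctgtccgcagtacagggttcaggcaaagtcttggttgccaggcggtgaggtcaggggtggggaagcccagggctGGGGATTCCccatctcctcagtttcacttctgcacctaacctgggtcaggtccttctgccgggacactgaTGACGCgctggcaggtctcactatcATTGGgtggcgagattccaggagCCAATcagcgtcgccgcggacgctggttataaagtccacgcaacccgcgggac
B2m (chr2:122147437-122147686, plus strand): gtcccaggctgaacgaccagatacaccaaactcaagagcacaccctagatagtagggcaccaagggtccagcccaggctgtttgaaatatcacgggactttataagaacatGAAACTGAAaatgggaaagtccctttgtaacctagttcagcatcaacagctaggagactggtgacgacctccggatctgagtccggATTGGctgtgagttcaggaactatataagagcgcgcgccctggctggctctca
Tapbp (chr17:33919228-33919477, plus strand): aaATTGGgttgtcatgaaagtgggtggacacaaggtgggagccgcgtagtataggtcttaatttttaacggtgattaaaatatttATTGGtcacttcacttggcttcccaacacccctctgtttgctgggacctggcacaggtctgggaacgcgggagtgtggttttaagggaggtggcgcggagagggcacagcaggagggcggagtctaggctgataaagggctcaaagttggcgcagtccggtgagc
Psmb8 (chr17:34197945-34198194, plus strand): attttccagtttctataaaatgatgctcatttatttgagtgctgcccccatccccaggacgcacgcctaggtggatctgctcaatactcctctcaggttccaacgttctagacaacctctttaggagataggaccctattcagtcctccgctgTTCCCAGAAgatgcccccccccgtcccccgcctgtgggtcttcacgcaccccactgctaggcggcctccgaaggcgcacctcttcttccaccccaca

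Both heavy chain promoters held a kappaB-like, an X2-box-like and a reversed Y box match in the same order. RefSeq also gave a second start for H2-K1, whose window is not printed. That window held the same matches and a forward Y box at 6 to 2 bases before its start. The values below are for the printed windows. The distance from the first base of the kappaB-like match to the first base of the X2-box-like match was 70 bases in H2-K1 and 70 bases in H2-D1, and from there to the Y box it was 25 bases in both. Lined up without gaps on the kappaB-like match, the windows were identical at 166 of 190 bases (87.4%). Of all 32851 promoter windows of this length, 4.98% held the kappaB-like motif, 6.12% the X2-box-like motif and 33.8% the Y box. All 3 were held by 46 windows (0.14%), the unprinted H2-K1 window included. B2m held the interferon response core as spelled here, present in 7.13% of all windows, and 1 Y box. The heavy chain windows did not match that exact spelling. Other spellings or spacings of the interferon response element were not searched. Its absence from the heavy chain promoters, or from the other windows without a match, is therefore not shown. Tapbp held 2 Y boxes and no other of the 5 motifs. Psmb8, shown as a member that was not called between depots, held 1 gamma-activated site, present in 7.02% of windows. Psmb10 held none of the 5. Tap1 and Psmb9, which lie head to head with overlapping windows, each held 1 Y box, which is the same stretch of the genome read on opposite strands. These are matches of letters and were not tested as binding sites.

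Levels per length differed widely among the members. Per kilobase of exon, B2m was highest, with 1001 ± 269.9 CPM per kb (SD, n = 29), followed by H2-D1 with 175 ± 86.1 and H2-K1 with 117 ± 68.6 CPM per kb. Psmb10 had 66.4 ± 23.3, Tapbp 44.2 ± 16.3, Psmb8 34.4 ± 11.6 and Tap2 22.6 ± 6.23 CPM per kb. The lowest were Tap1 with 6.55 ± 3.3, Psmb9 with 4.59 ± 2.86 and Nlrc5 with 0.711 ± 0.615 CPM per kb. Without division by length the order changed, with means of 160.3 CPM for Tapbp, 116 for Psmb8 and 113 for Psmb10. B2m lay above the ranges of all other members, with a lowest library of 512 CPM per kb against a highest of 352 for H2-D1. Neighbours further down overlapped, for example H2-D1 (70.1 to 352) with H2-K1 (37.5 to 246), and Tap1 (1.74 to 12.7) with Psmb9 (0.472 to 13.9). Part of the H2-K1 and H2-D1 sequence is shared with each other and with other class I genes: 22.76% of the 31-base words of H2-K1 and 26.71% of those of H2-D1 also occur in another gene, so how reads were divided between these genes is uncertain. No such word was shared for B2m, Psmb9, Psmb10 and Nlrc5.

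**Figure D1:**
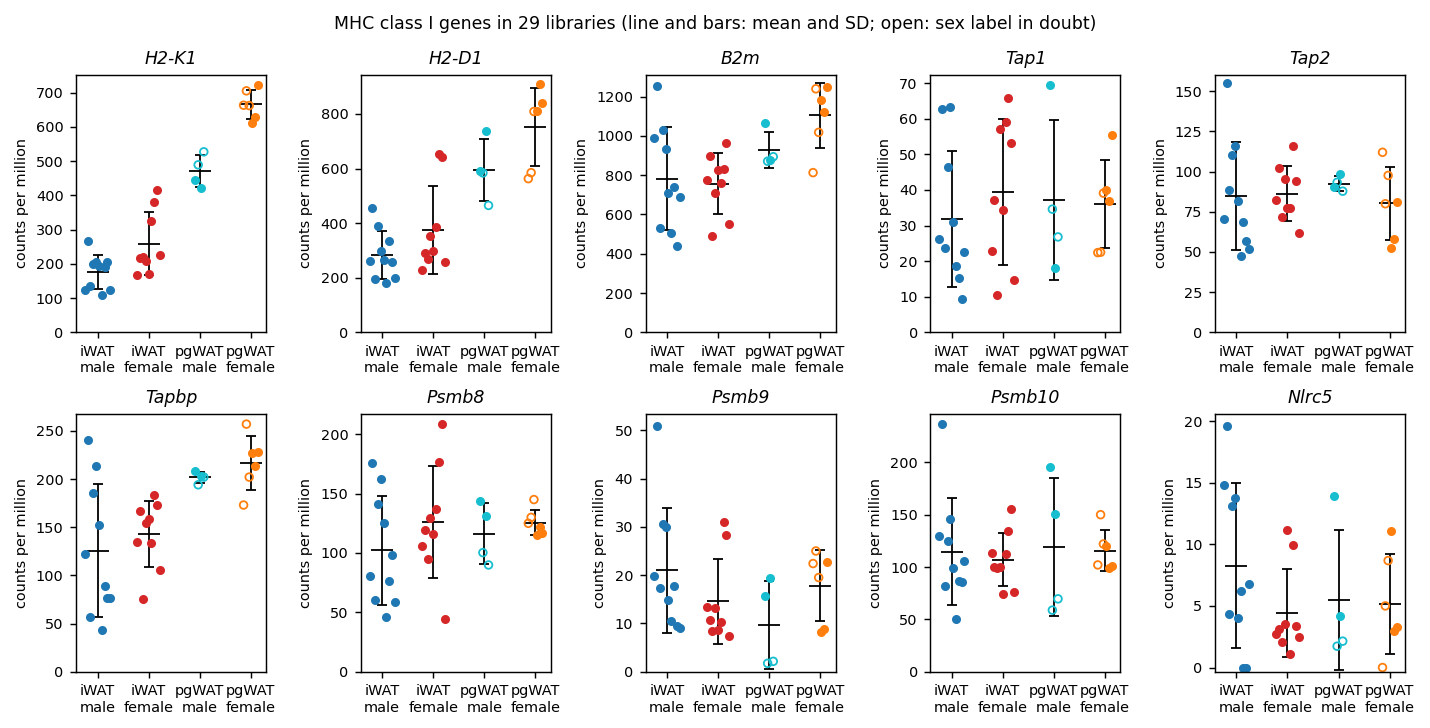
Level in CPM of the 10 members in each of the 29 libraries, by depot and labelled sex. Points are libraries, lines and bars the mean and SD, and open points the 5 pgWAT libraries whose sex label is in doubt. The 10 pgWAT libraries lie above all 19 iWAT libraries for H2-K1 (422 to 722 against 110.1 to 417 CPM), while the ranges of Tap1, Tap2, Psmb8, Psmb9 and Psmb10 overlap.

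The depot contrast asked which members differ between pgWAT and iWAT cultures when both sexes are weighted equally. The heavy chains H2-K1 and H2-D1, the light chain B2m and the loading gene Tapbp were higher in pgWAT, and no member was lower. Of the 9 members tested, 4 were called higher by edgeR's quasi-likelihood test at a Benjamini-Hochberg false discovery rate (FDR) below 0.05. Over all 8853 genes tested, 20.1% were called higher and 17.9% lower. The median log2 fold change was 0.07 over the 9 members and 0.01 over all genes tested. Nlrc5 was too low to be tested. These are bulk cultures, so a different number of cells of a type and a different amount of RNA per cell cannot be told apart.

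H2-K1 (ENSMUSG00000061232.17) showed the largest difference of the 9. Its level in iWAT male libraries had a lowest, median and highest value of 110.1, 192 and 266 CPM, and in iWAT female libraries of 168, 221 and 417 CPM. The pgWAT male libraries had 446, 489, 422 and 527 CPM, and the pgWAT female libraries 611, 662 and 722 CPM (lowest, median and highest). The lowest pgWAT library was thus above the highest iWAT library, although by little: 422 CPM in pgWAT male 3 against 417 CPM in iWAT female 8. Of all genes tested, 1.47% had every pgWAT library above every iWAT library. The log2 fold change was 1.39 (SE 0.133), a fold of 2.62, with an edgeR FDR of 3.21e-10.

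H2-D1 (ENSMUSG00000073411.13), the other classical heavy chain of this strain, followed the same pattern with more overlap. Lowest, median and highest values were 181, 262 and 456 CPM in iWAT male and 229, 298 and 653 CPM in iWAT female libraries. The pgWAT male libraries had 590.2, 584, 739 and 465 CPM, and the pgWAT female libraries 563, 811 and 908 CPM (lowest, median and highest). iWAT female 7 and 8, with 653 and 641 CPM, reached into the pgWAT range. The log2 fold change was 1.03 (SE 0.156), a fold of 2.05, with an edgeR FDR of 2.35e-06. The ratio of H2-K1 to H2-D1 per length within a library was 0.587 ± 0.101 in iWAT (SD, n = 19) and 0.773 ± 0.191 in pgWAT (SD, n = 10), with ranges that overlapped (0.422 to 0.768 and 0.502 to 1.06).

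B2m (ENSMUSG00000060802.9), which encodes the light chain common to all class I molecules, differed less. It ranged from 440.4 to 1256 CPM in iWAT male, with a median of 725, and from 489 to 962 CPM in iWAT female, with a median of 775. The pgWAT male libraries had 1066, 871, 879 and 894 CPM, and the pgWAT female libraries 813, 1154 and 1249 CPM (lowest, median and highest). The depots overlapped, and iWAT male 2 had the highest value of all 29 libraries. The log2 fold change was 0.40 (SE 0.131), a fold of 1.32, with an edgeR FDR of 0.0165.

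Tapbp (ENSMUSG00000024308.16), tapasin, was the only called member among the transport and loading genes. It ranged from 43.6 to 241 CPM in iWAT male, with a median of 105, and from 75.9 to 183 CPM in iWAT female, with a median of 154. The pgWAT male libraries had 208, 194, 203 and 202 CPM, and the pgWAT female libraries 173, 220.1 and 257 CPM (lowest, median and highest). All 10 pgWAT libraries lay above the iWAT mean, within a narrower range than the iWAT libraries. The log2 fold change was 0.62 (SE 0.181), a fold of 1.54, with an edgeR FDR of 0.0066.

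The pump and immunoproteasome genes were not called. Tap1 (ENSMUSG00000037321.18) ranged from 9.5 to 65.7 CPM in iWAT and from 18 to 69.4 CPM in pgWAT, and its log2 fold change of -0.03 had a 95% interval from -0.57 to 0.51. Tap2 (ENSMUSG00000024339.13) ranged from 47.8 to 155 CPM in iWAT and from 52.6 to 112 CPM in pgWAT, with an interval from -0.33 to 0.28. The difference of Psmb8 (ENSMUSG00000024338.16) had an interval from -0.31 to 0.44 and that of Psmb10 (ENSMUSG00000031897.10) one from -0.3 to 0.44. The intervals of these 4 genes lie below the log2 fold change of 0.62 estimated for Tapbp. Those of Tap1, Psmb8 and Psmb10 include the 0.40 of B2m, and that of Tap2 does not. Both estimates had intervals of their own, from 0.25 to 0.99 for Tapbp and from 0.13 to 0.66 for B2m. These overlap the intervals of all 4 genes, and the members were not tested against each other. Psmb9 (ENSMUSG00000096727.4) had a log2 fold change of -0.51 (SE 0.335, edgeR FDR 0.241) and an interval from -1.19 to 0.17.

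**Figure D2:**
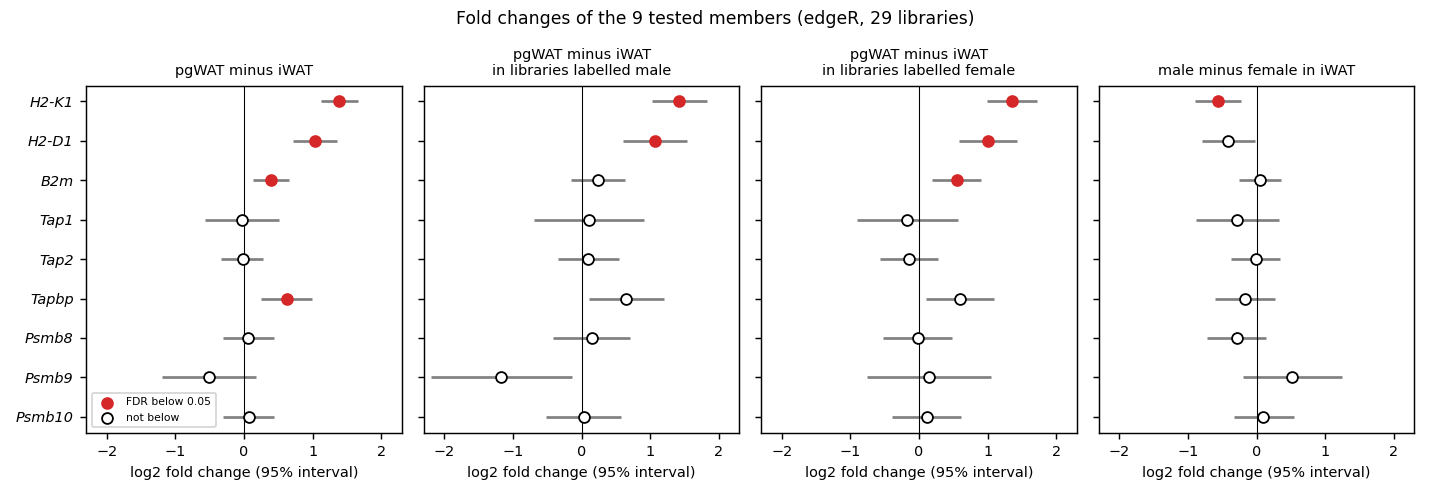
Log2 fold changes of the 9 tested members with 95% intervals in 4 contrasts, from edgeR over 29 libraries. Red points passed an FDR below 0.05: H2-K1 (1.39), H2-D1 (1.03), Tapbp (0.62) and B2m (0.40) between depots, the heavy chains in both labelled sexes, B2m in libraries labelled female, and H2-K1 (-0.56) between iWAT male and female libraries.

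Psmb9 was uneven within pgWAT. The pgWAT male libraries had 15.6, 1.73, 19.4 and 2.14 CPM, and the pgWAT female libraries ranged from 8.3 to 25 CPM. The low values of 1.73 and 2.14 CPM were those of pgWAT male 2 and 4, which were also lowest in pgWAT for Psmb10, with 58.8 and 69.6 CPM against 151 and 196 CPM in the other pgWAT male libraries. Both are among the libraries whose sex transcripts contradict the label, and both were prepared in well column 9.

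Per length, the immunoproteasome subunits stood in different proportion to the constitutive subunits they replace. In pgWAT the ratio of Psmb8 to Psmb5 was 0.156 ± 0.0267, that of Psmb9 to Psmb6 was 0.0197 ± 0.0122 and that of Psmb10 to Psmb7 was 1.52 ± 0.485 (SD, n = 10). In iWAT the same ratios were 0.13 ± 0.0636, 0.0205 ± 0.0135 and 1.26 ± 0.553 (SD, n = 19). By this measure Psmb10 was near the level of its counterpart, and Psmb9 far below it, in both depots. Without division by length Psmb10 had a lower mean than Psmb7, at 113 ± 39.7 against 174 ± 29.1 CPM (SD, n = 29). Psmb8 was then at 116 ± 39.1 against 233 ± 40 CPM for Psmb5 (SD, n = 29). Psmb9 was at 16.8 ± 10.5 against 428 ± 69.3 CPM for Psmb6 (SD, n = 29). Depot ranges overlapped for each of the 3 ratios. These ratios compare exon-union lengths and are a description.

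Nlrc5 (ENSMUSG00000074151.14) had 117 counts over the 29 libraries and failed the filter on low counts. It ranged from 0 to 19.6 CPM in iWAT and from 0 to 13.9 CPM in pgWAT, and 3 libraries had 0 counts, namely iWAT male 8, iWAT male 9 and pgWAT female 1. The highest value was that of iWAT male 2. A difference between depots was not detectable at this depth.

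**Figure D3:**
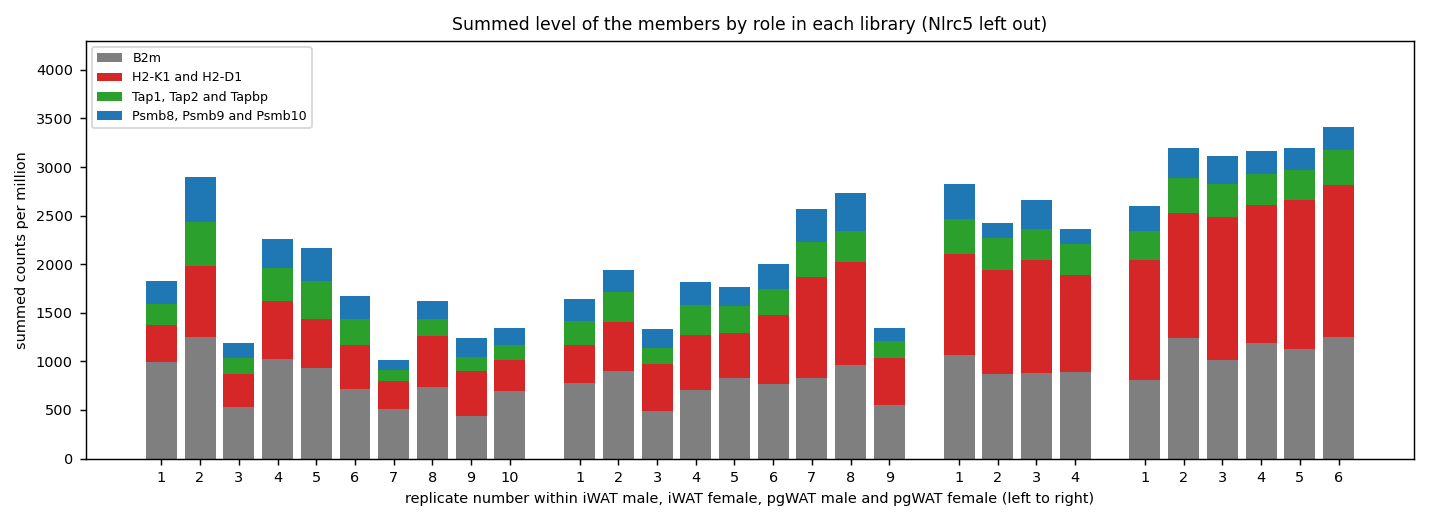
Summed CPM of the members in each library, stacked by role, with Nlrc5 left out for its low level. The heavy chain segment (H2-K1 and H2-D1) spans 992 to 1562 CPM in pgWAT and 291 to 1058 CPM in iWAT, and iWAT male 2 stands out for its tall B2m, loading and immunoproteasome segments.

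Taken within each labelled sex, the heavy chains differed in both. In libraries labelled male, H2-K1 (log2 fold change 1.42, SE 0.197, edgeR FDR 1.92e-06) and H2-D1 (1.07, SE 0.231, FDR 0.000972) were called higher in pgWAT, 2 of 9 members, where 11.8% of all genes tested were called higher and 8.53% lower. Both genes had all 4 pgWAT male libraries above all 10 iWAT male libraries, as did 4.26% of genes tested. These 4 libraries fell into pairs and were not 4 alike replicates. The chi-square per degree of freedom, which measures how unlike the counts of 2 libraries are, was 2.25 for pgWAT male 2 with 4. It was 2.7 for pgWAT male 1 with 3, and 10.6 to 11.8 across these pairs. In libraries labelled female, H2-K1 (1.36, SE 0.18, FDR 5.33e-07), H2-D1 (1.00, SE 0.21, FDR 0.000451) and B2m (0.55, SE 0.175, FDR 0.0186) were called, 3 of 9 members, where 14.2% of all genes were called higher and 12.6% lower. For H2-K1 all 6 pgWAT female libraries lay above all 9 iWAT female libraries, as for 4.62% of genes tested. These 6 libraries were also not all alike. The chi-square per degree of freedom was 1.64 to 2.24 among pgWAT female 4, 5 and 6. It was 2.27 to 2.97 among pgWAT female 1, 2 and 3, and 3.21 to 6.33 across these sets. Tapbp had log2 fold changes of 0.65 and 0.59 with FDRs of 0.0801 and 0.0701 in the male and female contrasts. Psmb9 had -1.17 (FDR 0.0972) in the libraries labelled male and 0.15 (FDR 0.852) in those labelled female.

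Whether the depot difference itself changed with labelled sex was tested as an interaction. No member was called, where 0.102% of genes tested were called with a positive and 0.0791% with a negative interaction. The interaction was 0.07 for H2-K1 (95% interval -0.49 to 0.62) and 0.06 for H2-D1 (-0.59 to 0.71). The smallest p was that of Psmb9, with -1.31 (edgeR p = 0.0593, FDR 0.6). No member had an unadjusted p under 0.05. These values rest on pgWAT sex labels that are in doubt in 5 of the 10 libraries.

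Leaving out the 5 libraries in doubt left the same 4 members called higher in pgWAT. The libraries were also spread unevenly over 4 columns of the library plate, so the depots were compared within a column where both were present. Within column 8, with 3 iWAT female and 3 pgWAT female libraries that match their labels, H2-K1 was higher in pgWAT by 0.8 on the log2 scale (edgeR FDR 0.00022), H2-D1 by 0.61 (FDR 0.0113) and B2m by 0.47 (FDR 0.00838), while Tapbp, at 0.44 (FDR 0.0612), was not called. There, Tap2 and Psmb8 were lower in pgWAT, with log2 fold changes of -0.65 (FDR 0.0457) and -0.57 (FDR 0.0315). In that fit 9.49% of genes were called higher and 6.48% lower. Within column 9, with 3 iWAT male libraries and the 2 doubtful pgWAT male libraries 2 and 4, H2-K1 was higher by 1.77 (FDR 2e-05), H2-D1 by 1.28 (FDR 0.000179), Tapbp by 1.13 (FDR 0.0273) and B2m by 0.6 (FDR 0.0172), against 13.5% of genes called higher and 11.6% lower. With column as a factor over all libraries, H2-K1 was at 1.22 (FDR 7.29e-08), H2-D1 at 0.98 (FDR 5.49e-06), Tapbp at 0.78 (FDR 0.00434) and B2m at 0.51 (FDR 0.00475).

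**Figure D4:**
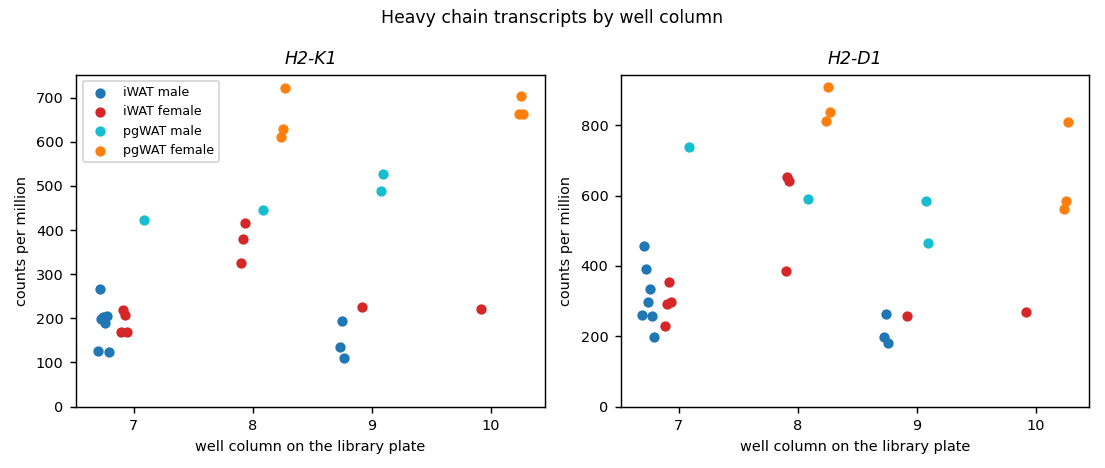
Level in CPM of H2-K1 and H2-D1 by well column on the library plate, coloured by depot and labelled sex. In every column holding both depots the pgWAT libraries are above the iWAT libraries for H2-K1, and the 3 iWAT female libraries of column 8 (326 to 417 CPM) lie above the other iWAT female libraries (168 to 225 CPM).

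The sex contrast in iWAT, where all labels match the sex transcripts, called 1 of 9 members. H2-K1 was lower in male than in female libraries by 0.56 on the log2 scale (SE 0.164, edgeR FDR 0.0493), with a mean of 176 ± 49.5 CPM (SD, n = 10) against 259 ± 91.7 CPM in the females (SD, n = 9). Over all genes tested 1.08% were called higher and 2.13% lower in male libraries. The call did not hold across the plate. The 3 iWAT female libraries of column 8 had 326, 380.3 and 417 CPM, and the other 6 had between 168 and 225 CPM, which overlapped the male range of 110.1 to 266 CPM. Within column 7, with 7 male and 4 female libraries, the log2 fold change of H2-K1 was -0.03 (FDR 0.955) and that of H2-D1 0.09 (FDR 0.878), and no member was called, where 1.6% of genes were called higher and 1.45% lower. With column as a factor the value for H2-K1 was -0.26 (FDR 0.423). Leaving out any 1 of 17 of the 29 libraries, iWAT female 6, 7 and 8 among them, also lost the call.

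The other members did not pass in iWAT. H2-D1 had a log2 fold change of -0.41 (SE 0.189, FDR 0.278), Tap1 of -0.28 and Psmb8 of -0.29, and Psmb9 had 0.52 (SE 0.354, FDR 0.508). B2m, with a male mean of 783 ± 263 CPM (SD, n = 10) and a female mean of 756 ± 154 CPM (SD, n = 9), had a 95% interval from -0.26 to 0.36.

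Between the pgWAT libraries labelled male and female no member was called by edgeR, and 1 member, H2-K1, had an unadjusted p under 0.05. Over all genes 0% were called higher and 0.0113% lower in libraries labelled male. H2-K1 was at 422 to 527 CPM in the 4 libraries labelled male and at 611 to 722 CPM in the 6 labelled female, without overlap, as were 0.836% of genes tested in that direction. Its log2 fold change was -0.5 (SE 0.224, p = 0.0337, FDR 0.544 in edgeR). With column as a factor it was -0.1 (FDR 0.96). Since pgWAT male 2 and 4 carry Xist and pgWAT female 2 and 3 carry Y-linked transcripts, the split follows the label and not the sex transcripts.

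The members also varied together from well to well. After subtracting group means, Pearson's r of log2 CPM over the 29 libraries was between 0.36 (H2-K1 with B2m) and 0.86 (B2m with Tapbp) for the pairs of the 9 tested members. H2-K1 and H2-D1 were at 0.77, and Psmb9 and Psmb10 at 0.81. The genes outside the set with the most similar pattern, among those with an average log2 CPM of at least 5, were Stat2 (r = 0.92 with the mean of the members), Xaf1 (0.90), H2-T23 (0.88), Isg15 (0.87) and Tor3a (0.87). The points are wells that share depth, plate position and, in part, their experiment, so these values are a description. In iWAT male 2 Tapbp had 241, Psmb8 176, Psmb9 50.9 and Psmb10 237 CPM, each the highest of the iWAT male libraries, while iWAT male 7 was lowest in that group for H2-K1, H2-D1, Tap2, Tapbp, Psmb8 and Psmb10. All 10 members together took between 0.106% of counts, in iWAT male 7, and 0.333%, in pgWAT female 6.

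The remaining genes of the pathway were described by lists. Of the other class I heavy chains and class I-like genes, 9 of 19 were tested, and 6 were higher and none lower in pgWAT, with a median log2 fold change of 0.71, and the counts were the same without the 5 libraries in doubt. With column as a factor 5 were higher, and with library totals as the scaling 6 were higher and 1 lower. Not all rose: H2-T22 had a lower mean in pgWAT, at 146 ± 17.4 CPM (SD, n = 10) against 189 ± 71.4 CPM in iWAT (SD, n = 19). Its ranges overlapped (117 to 174 and 76.9 to 381 CPM). Mr1, which presents vitamin B metabolites to MAIT cells, rose by 1.2 (SE 0.205, edgeR FDR 1.65e-05), and Fcgrt, the neonatal Fc receptor, by 0.91 (SE 0.163, FDR 3.2e-05). H2-Q7 (log2 fold change 1.12, FDR 0.00138) and H2-Q4 (0.99, FDR 0.00331) share sequence with the classical heavy chains. H2-T23, the Qa-1 molecule read by natural killer cells, was at 186 ± 78.7 CPM in iWAT (SD, n = 19) and 315 ± 65.4 CPM in pgWAT (SD, n = 10), a log2 fold change of 0.71 (SE 0.18, FDR 0.00201). None of these was called between iWAT male and female libraries.

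Of 14 peptide loading and trimming genes, 6 were higher and 1 lower in pgWAT, with a median of 0.24. Those with the largest change were Pdia3, the disulfide isomerase bound to tapasin (0.89, SE 0.218, edgeR FDR 0.00148), Ide (0.78, SE 0.279, FDR 0.0264), Derl1 (0.67, SE 0.123, FDR 4.18e-05) and the trimming peptidase Lnpep (0.64, SE 0.186, FDR 0.00645). Without the libraries in doubt 1 was higher and none lower, and with column as a factor 3 were higher and 1 lower. Pdia3 was also the only gene of these pathway lists called between iWAT male and female libraries, at -1.04 (SE 0.265, FDR 0.0212). It was at 244 ± 137 CPM in iWAT and 426 ± 202 CPM in pgWAT (SD, n = 19 and 10).

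Several constitutive proteasome genes were lower in pgWAT. Of 19 counterparts, structural subunits and activators, 10 were lower and none higher in pgWAT, with a median of -0.22. The largest were Psma5 (-0.48, SE 0.0878, edgeR FDR 4.75e-05), Psma4 (-0.42, SE 0.0939, FDR 0.000632), Psmb3 (-0.37, SE 0.119, FDR 0.0144) and Psma6 (-0.32, SE 0.0939, FDR 0.00698). Of the 3 subunits that the members replace, listed here as their counterparts, Psmb6 (-0.29, FDR 0.00947) and Psmb7 (-0.23, FDR 0.0391) were called and Psmb5 (-0.2, FDR 0.104) was not. Without the libraries in doubt 3 of the 19 were lower. The interferon-inducible activator subunits Psme1 and Psme2 were at 0.17 (FDR 0.39) and 0.06 (FDR 0.735).

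Among 27 tested regulators upstream of class I genes, 5 were higher and 2 lower in pgWAT, with a median of -0.05. Socs3, a feedback inhibitor of cytokine signalling, rose by 1.59 (SE 0.228, edgeR FDR 1.04e-06), the type I interferon receptor chain Ifnar2 by 1.17 (SE 0.194, FDR 1.06e-05) and Stat3 by 0.73 (SE 0.11, FDR 2.53e-06). The interferon gamma receptor chain Ifngr1 was lower, with a log2 fold change of -0.69 (SE 0.155, FDR 0.000577). Stat2, a transducer of type I interferon signals (-0.04, FDR 0.923), and the factor Irf1 (-0.28, FDR 0.23), named after their values were seen, were not called. Of 32 other interferon-stimulated genes 5 were higher and 1 lower, with a median of 0.09. The largest with an average log2 CPM of at least 4 were Zbp1 (1.2, SE 0.282, FDR 0.000969), Isg20 (1.06, SE 0.199, FDR 6.35e-05), Bst2 (0.66, SE 0.246, FDR 0.0324) and Lgals9 (0.52, SE 0.17, FDR 0.0158), and below that level Ifitm1 had a larger log2 fold change (1.76, SE 0.398, FDR 0.000628). The shares of both lists called higher were below the 20.1% of all genes. In the iWAT sex contrast none of the 27 or 32 was called, and with column as a factor 6 of the 32 were higher in male libraries.

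**Figure D5:**
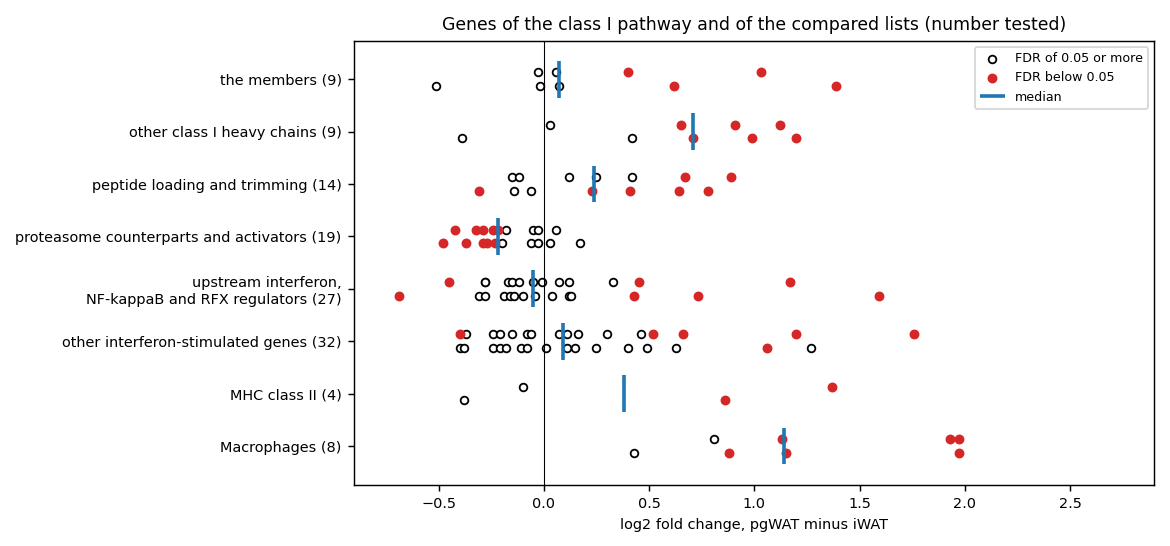
Log2 fold changes between pgWAT and iWAT of the 9 tested members and of the tested genes of 7 lists, with the number tested in brackets. Red points passed an FDR below 0.05 and blue lines are medians, which are 0.71 for the other class I heavy chains and -0.22 for the proteasome list.

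Markers of other cell types also differed between depots, and their part in the differences above was not tested. Of 10 macrophage markers 8 were tested and 6 were higher in pgWAT, among them C1qa (1.97, SE 0.27, edgeR FDR 4.39e-07). Their summed level was 670.5 to 2545 CPM in iWAT libraries, 7570.3, 1264, 8186 and 1180 CPM in the pgWAT male and 772 to 3534 CPM in the pgWAT female libraries. Most of this sum is 1 gene, Lyz2, with 28282 counts over the 29 libraries against 2678 for Cd68, the next highest. In pgWAT female 4, 5 and 6 the sum was 798, 772 and 865 CPM, below all iWAT male libraries (1466 to 2545 CPM). It was within the range of the iWAT female libraries (670.5 to 1137 CPM) and above the 3 iWAT female libraries of the same column (670.5 to 749.7 CPM). In pgWAT female 4, 5 and 6 H2-K1 was at 611, 628 and 722 CPM and H2-D1 at 812, 908 and 839 CPM. In pgWAT male 1 and 3, with the highest macrophage sums, H2-K1 was at 446 and 422 CPM against 489 and 527 CPM in pgWAT male 2 and 4, while H2-D1 was at 590.2 and 739 CPM against 584 and 465 CPM. Between iWAT sexes 2 macrophage markers were higher in male libraries, Csf1r (0.95, FDR 0.0107) and Lyz2 (1.24, FDR 0.0206). Of 6 class II genes, the peptide display set of professional antigen presenting cells, 4 were tested and 2 were higher in pgWAT. H2-Ab1 among them rose by 1.37 (SE 0.312, FDR 0.000678), from 10.2 ± 7.61 CPM in iWAT to 25.7 ± 8.53 CPM in pgWAT (SD, n = 19 and 10).

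Lymphocyte markers were at or near 0. The 5 T and natural killer cell markers summed to at most 9.5 CPM in any library and the 4 B cell markers to at most 22.2 CPM, none passed the filter, and the leukocyte gene Ptprc was between 0 and 25 CPM. Cd3e was at 0 in 25 of the 29 libraries. All 6 fibroblast markers were tested and 5 were higher in pgWAT, among them Col1a1 (1.22, SE 0.182, edgeR FDR 2.05e-06) and Pdgfra (0.56, SE 0.0937, FDR 1.19e-05), and without the libraries in doubt 2 were higher and 1 lower. Of 4 tested mesothelial markers 3 were higher and 1 lower, with Upk3b at 7.22 (FDR 2.18e-14) and a summed level of 59 to 189 CPM in pgWAT and 1.96 to 98.7 CPM in iWAT. All 3 tested smooth muscle markers were higher, with Tagln at 1.52 (FDR 3.86e-08), and of 3 tested endothelial markers 1 was higher. In the iWAT sex contrast Krt8 and Krt18, both epithelial keratins, were lower in male libraries (-8.49 and -6.00, FDR 5.1e-07 and 4.68e-06), as were Col1a1 and Tagln (both -1.23, FDR 0.00114 and 0.00127), with the epithelial markers summing to 0 to 6.23 CPM in male and 29.4 to 1355 CPM in female libraries. The 3 iWAT female libraries of column 8, high in H2-K1, had epithelial sums of 119, 70.6 and 29.4 CPM, within the lower part of the female range, and macrophage sums of 670.5, 736 and 749.7 CPM.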

How the data were processed

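SVF cultures were sequenced by Smart-seq3 in wells of a plate. Per the labels and the study's methods, the authors trimmed adapters with NGmerge, quantified UMI and non-UMI reads together with Salmon 1.9.0 against the mouse Gencode transcriptome (GRCm39), used STAR 2.7.10a for quality control and removed libraries with few genes. The deposited values are expected counts per gene, rounded here to whole numbers. Features matched to a symbol were 52029 of 56953. Library totals were 315316 to 1102234. The floor of 3 counts covers counting error only, while the 95% intervals come from the edgeR fit and include the spread between wells.

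Genes were filtered with filterByExpr and fitted with edgeR 4.0.16 (R 4.3.3) by the quasi-likelihood test (TMM, 1 term per group, 29 libraries). P-values were two-sided and Benjamini-Hochberg adjusted over 8853 genes, with calls at an FDR below 0.05. The script was tested on simulated data. Alternatives were DESeq2 1.42.0, limma-voom (limma 3.58.1), other scaling, no filter, well column, the iWAT groups alone, and leaving out each library or the 5 in doubt. CPM used TMM library sizes, and lengths were exon unions.

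The members and lists were chosen with earlier results of these data known. All members were named, plus, from each list in the depot and iWAT sex contrasts, up to 4 called genes of largest change with an average log2 CPM of at least 4, defining genes of the cell type lists, and the 5 genes of average log2 CPM of at least 5 most like the members. Psmb5, Psmb6, Psmb7, Psme1, Psme2, Stat2 and Irf1 were named in the depot contrast after their values were seen.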

Additional observations from a re-analysis of the deposited data

Results flagged for a closer look

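Among the 40 pairs of a member and a group, 3 held a library set apart from the others. Its gap to the nearest other library was large for the range of its group. The cut-offs are those that about 1 in 20 groups would pass by chance if values were normal and independent. The members vary together and share libraries, so that rate does not measure chance here. B2m was at 1066 CPM in pgWAT male 1, where the next of the 4 libraries had 894 CPM. Psmb9 was at 50.9 CPM in iWAT male 2, where the next of the 10 libraries had 30.5 CPM. Psmb10 was at 237 CPM in iWAT male 2, where the next had 146 CPM.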

How the results depend on the processing

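Between depots H2-K1, H2-D1, B2m and Tapbp were called higher under each of the 7 other settings tried and without any 1 of the 29 libraries, where the log2 fold change was 1.35 to 1.44 for H2-K1, 0.97 to 1.1 for H2-D1, 0.35 to 0.44 for B2m and 0.57 to 0.69 for Tapbp. In libraries labelled male the 2 members called became 4 with limma-voom, 4 with well column as a factor and 4 within column 9. With the first pair of settings Tapbp was added as higher and Psmb9 as lower. In libraries labelled female 3 became 5 within column 8. The 1 call between iWAT sexes became 0 with limma-voom, 0 with well column as a factor, 0 within column 7 and 0 with the iWAT groups alone, and 0 to 1 with each library left out (H2-K1 at -0.65 to -0.44). The share of all genes called is given for the main fit and for the fits within a column. For the other settings it is not given, so their counts, here and for the lists, are shown without a share to read them against. Whether those counts moved with the number of calls over all genes was not examined. The causes were not tested.

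No called member changed direction. Uncalled values that did were, with DESeq2, Tap1 between depots (0.01), and with RLE scaling, Tap1 between pgWAT labels (-0.01). With library totals they were Psmb10 between depots in males (-0.01) and Tap1 between pgWAT labels (-0.02). With limma-voom they were Psmb10 (-0.06 between depots in males, -0.15 between pgWAT labels), Tap1 between pgWAT labels (-0.17) and Psmb8 between depots in females (0.05). With column as a factor they were, between depots, Psmb8 (-0.03) and Psmb10 (-0.08), in males Psmb10 (-0.01) and Tap1 (-0.04), in females Psmb10 (-0.16) and Psmb9 (-0.32), between iWAT sexes Psmb8 (0.04), Tap2 (0.05) and Tap1 (0.11), and between pgWAT labels H2-D1 (0.02), Psmb9 (0.17) and Psmb8 (0.4). Within column 7 they were Tap2 (0.05) and H2-D1 (0.09), within column 8 Psmb10 (-0.31) and Psmb9 (-1), and within column 9 Psmb10 (-0.27). Without the 5 libraries in doubt they were Tap1 between depots (0.18), in females Psmb10 (-0.01), Psmb9 (-0.36) and Tap1 (0.05), and between pgWAT labels Tap1 (-0.04), Psmb8 (0.19) and Psmb9 (0.56). With each library left out, ranges that crossed 0 were, between depots, Psmb10 -0.11 to 0.17, Psmb8 0 to 0.12, Tap1 -0.27 to 0.08 and Tap2 -0.08 to 0.04, in males Psmb10 -0.31 to 0.24 and Tap1 -0.36 to 0.33, in females Psmb8 -0.12 to 0.1, between iWAT sexes B2m -0.05 to 0.12, Psmb10 -0.07 to 0.19 and Tap2 -0.14 to 0.05, and between pgWAT labels Psmb10 -0.32 to 0.23 and Tap1 -0.46 to 0.23.

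Without the filter Nlrc5 had a log2 fold change between depots of -0.26 (edgeR p = 0.537, FDR 0.973). No paired analysis was possible because the labels give no replicate number that groups share. For the pathway and marker lists, the other scalings, the well column and the omission of libraries in doubt were chosen after seeing the data.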
